A study of Mus musculus with 29 samples.

Results

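Transcripts of 7 neutrophil granule proteins (Camp, Ngp, Ltf, Lcn2, Prtn3, Elane and Mpo) were followed through blood and brain of mice after experimental stroke. The genes were picked by name, without a threshold on their values but with earlier results of these data known, and they are 7 of the 16623 genes in the blood tables. Among the 19704 genes of the young brain tables there were 6 of them, and Mpo was not analysed there. The aged brain tables, with 27514 genes, held all 7. The study profiled single cells of C57BL/6J mice with Drop-seq, in which cells are caught in droplets with barcoded beads that tag each transcript with its cell. Stroke was a temporary blockage of the middle cerebral artery, and the controls had a sham operation.

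Brains of young males (8 to 10 weeks old) were sampled 2 days after sham surgery (4 libraries), 2 days after stroke (4) and 14 days after stroke (4). Blood of young males was sampled in the same conditions, with 4, 4 and 3 libraries. Brains of aged animals (17 to 20 months old) comprised a male and a female library 2 days after sham surgery, 1 male and 2 female libraries 2 days after stroke, and a single female library 14 days after stroke. Each brain library pooled 4 to 5 hemispheres, from which leukocytes with high CD45, microglia and endothelial cells were sorted after papain digestion. Each blood library pooled leukocytes of 2 mice. There was no sham library at day 14, so stroke and the longer time since surgery cannot be told apart in any day 14 value.

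Neutrophils build their granules in sequence while they mature in the bone marrow. Azurophil granules come first, in promyelocytes, and carry myeloperoxidase (Mpo), neutrophil elastase (Elane) and proteinase 3 (Prtn3). Specific granules follow in myelocytes and metamyelocytes and carry lactoferrin (Ltf, which binds iron), the cathelicidin precursor (Camp), neutrophilic granule protein (Ngp) and lipocalin 2 (Lcn2, which binds bacterial siderophores). Transcription of most granule genes has stopped when a neutrophil enters the blood, while the proteins stay stored in the cell. Lcn2 is also known as an acute-phase gene that other cells can switch on in inflammation.

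All 7 genes were matched to RefSeq on the mouse assembly GRCm38.p6. Camp (chr9:109847377-109849456, minus strand), Ngp (chr9:110419808-110423012, plus strand) and Ltf (chr9:111019292-111042766, plus strand) lie within 1195.4 kb of chromosome 9, and Lcn2 is at chr2:32384637-32387739 on the minus strand. Prtn3 (chr10:79879667-79883174) and Elane (chr10:79886312-79888216) are neighbours on the plus strand of chromosome 10, with 3.137 kb between them. Mpo is at chr11:87793784-87804412 on the plus strand. These intervals span whole genes, exons and introns together.

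The promoters of the genes are shown because, in the values that follow, the azurophil genes and the specific granule genes were high in different cells. A 100-base stretch upstream of the RefSeq start is printed for each, read along the gene's own strand, with motif matches in capitals. For the azurophil genes the capitals mark GAGGAAGT, a sequence of the type bound by ETS factors.
Prtn3: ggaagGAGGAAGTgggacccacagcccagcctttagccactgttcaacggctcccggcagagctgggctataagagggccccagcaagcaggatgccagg
Elane: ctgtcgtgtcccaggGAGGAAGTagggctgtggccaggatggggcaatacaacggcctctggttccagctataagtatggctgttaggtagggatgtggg
Mpo: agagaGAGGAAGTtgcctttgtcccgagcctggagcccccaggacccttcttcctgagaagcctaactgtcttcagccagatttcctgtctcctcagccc
For the specific granule genes the capitals mark TTGCNNAA or its reverse complement TTNNGCAA, a sequence of the type bound by C/EBP factors.
Ngp: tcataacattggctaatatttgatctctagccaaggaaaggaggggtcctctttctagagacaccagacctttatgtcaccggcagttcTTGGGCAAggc
Ltf: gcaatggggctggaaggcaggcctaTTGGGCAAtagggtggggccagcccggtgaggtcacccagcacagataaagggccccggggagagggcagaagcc
Lcn2: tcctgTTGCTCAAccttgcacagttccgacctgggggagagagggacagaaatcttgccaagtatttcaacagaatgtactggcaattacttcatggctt
Camp: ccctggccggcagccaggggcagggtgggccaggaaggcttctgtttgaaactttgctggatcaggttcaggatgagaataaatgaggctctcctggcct

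The printed stretches cover chr10:79879567-79879666 for Prtn3, chr10:79886212-79886311 for Elane, chr11:87793555-87793654 for Mpo, chr9:110419708-110419807 for Ngp, chr9:111019192-111019291 for Ltf, chr2:32387861-32387960 for Lcn2 and chr9:109849457-109849556 for Camp. Over the 250 bases before the start and on either strand, GAGGAAGT (reverse complement ACTTCCTC) was present in 3 of the 7 genes and in 2.441% of 32851 RefSeq promoters. It began 95 bases before the start in Prtn3, 85 in Elane and 224 in Mpo. TTGCNNAA was present in 3 of the 7 genes and in 9.564% of the promoters. It lay 138 and 11 bases before the start of Ngp, 75 before that of Ltf and 216 before that of Lcn2. The window of Camp held neither sequence. Both motifs were picked with these sequences in view, and a match describes letters only.

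Neutrophils carry the deposited code Neu in blood (17186 cells, 435 to 3968 per library) and Gran in brain (1531 cells, 21 to 169 per library), of 106977 cells in all. Summed over all cell types, a brain library held 819437 to 5855046 counts and a blood library 966913 to 5232661. The defining markers fitted the codes: the summed level of 8 neutrophil markers (S100a8, S100a9, Csf3r, Cxcr2, Retnlg, Ly6g, G0s2 and Mmp9) was 199073 to 303211 CPM (counts scaled to 1e06 counts of the same cells) in blood of sham mice, 170105 to 265198 at stroke day 2 and 113210 to 190529 at day 14. In brain it was lower after stroke, as the values beside the day 2 and day 14 results show. No more than 7 cell barcodes were shared by any 2 libraries. Replicates are libraries of separate pools, so p values refer to the spread between pools.

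Camp, Ngp and Ltf were carried by few neutrophils, Lcn2 by many, and the azurophil genes by almost none. In blood, Camp reached at least 0.5 expected counts in 5.71% of neutrophils, Ngp in 13.3%, Ltf in 3.09% and Lcn2 in 68.9%, at a median of 542 counts per cell. These shares pool all libraries; without stroke day 2 replicate 4 they were 2.29% for Camp, 10.3% for Ngp, 1.58% for Ltf and 66.2% for Lcn2. In B cells of the same libraries, which should lack these transcripts, the shares were 0.00545% for Camp, 0 for Ngp, 0.0218% for Ltf and 0 for Lcn2, at a median of 422 counts. Many values in B cells were above 0 but close to it: 1.505% of B cells had some value above 0 for Camp and 2.27% for Lcn2. What produced these values is not given in the sources used here, so the B cell shares may not show the full background. Elane and Mpo summed to 0 counts in the neutrophils of all 11 blood libraries. Prtn3 ranged from 0 to 9.81 CPM there.

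Among the deposited subtypes of Neu and Gran, pooled Camp was highest in 1 blood cluster and 3 brain clusters. Because these clusters were made from all genes, their levels are a description without a test. Neu6, with 703 of the blood neutrophils, held Camp at 23281 CPM, Ngp at 31430, Ltf at 8042 and Lcn2 at 13689 when its cells were pooled. The pooled value rests largely on stroke day 2 replicate 4 and day 14 replicate 2, which held 89.9% of its Camp counts, 85.5% of its Ngp and 87.1% of its Ltf. In Neu1 to Neu5, Camp lay between 42.3 and 78.0 CPM, Ngp between 121 and 558, Ltf between 9.05 and 13.6 and Lcn2 between 2343 and 5619. In brain, Gran4 (75 cells) held Camp at 29966 CPM, Ngp at 33439, Ltf at 9204 and Lcn2 at 14035. Gran5 (61 cells) and Gran6 (26 cells) held Camp at 12660 and 29217 CPM when pooled, but these values rest on 4 and 5 cells with at least 0.5 counts. In Gran5 those 4 were among 10 young sham cells, and Camp was 0 in its 10 cells of stroke day 2 and 41 of day 14. In Gran6 they were 2 of 6 young sham, both aged sham cells and the 1 aged stroke day 2 cell, and Camp was 0 in its 15 young cells of day 2 and 2 of day 14. Gran1 (712 cells) held Camp at 339 CPM and Lcn2 at 5184, Gran2 (529 cells) 10.6 and 1563, and Gran3 (128 cells) 0 and 218. Lcn2 was therefore spread over subtypes that held almost no Camp.

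Within the deposited precursor code pre (263 blood cells), Camp, Ngp and Ltf were high in a different subtype from Prtn3, Elane and Mpo. Its subtype pre1 (116 cells) held Prtn3 at 651 CPM, Elane at 630 and Mpo at 629, with Camp at 10.2 and Lcn2 at 124. Subtype pre2 (74 cells) held Prtn3 at 414 CPM, Elane at 177 and Mpo at 27.4, with Camp, Ngp and Ltf at 0 and Lcn2 at 224. Subtype pre3 (73 cells) held Camp at 63925 CPM, Ngp at 52312, Ltf at 9778 and Lcn2 at 13557, with Prtn3, Elane and Mpo at 0. The neutrophil marker S100a8 differed too, at 137 CPM in pre1, 2.15 in pre2 and 189153 in pre3. Chil3 was at 1579, 7905 and 11606 CPM. Whether the subtypes differ by lineage or by stage was not tested. Stroke day 2 replicate 4 gave 126 of the 263 cells: 27 of the 116 of pre1, 43 of the 74 of pre2 and 56 of the 73 of pre3. Its share of the counts was larger. All pre cells held 141 counts of Prtn3, 112 of Elane and 95.4 of Mpo. That library held 66.8, 61.0 and 56.0 of them in pre1 and 36.3, 17.6 and 2.97 in pre2. In pre3 it held 5766 of the 6348 Camp counts.

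**Figure D1:**
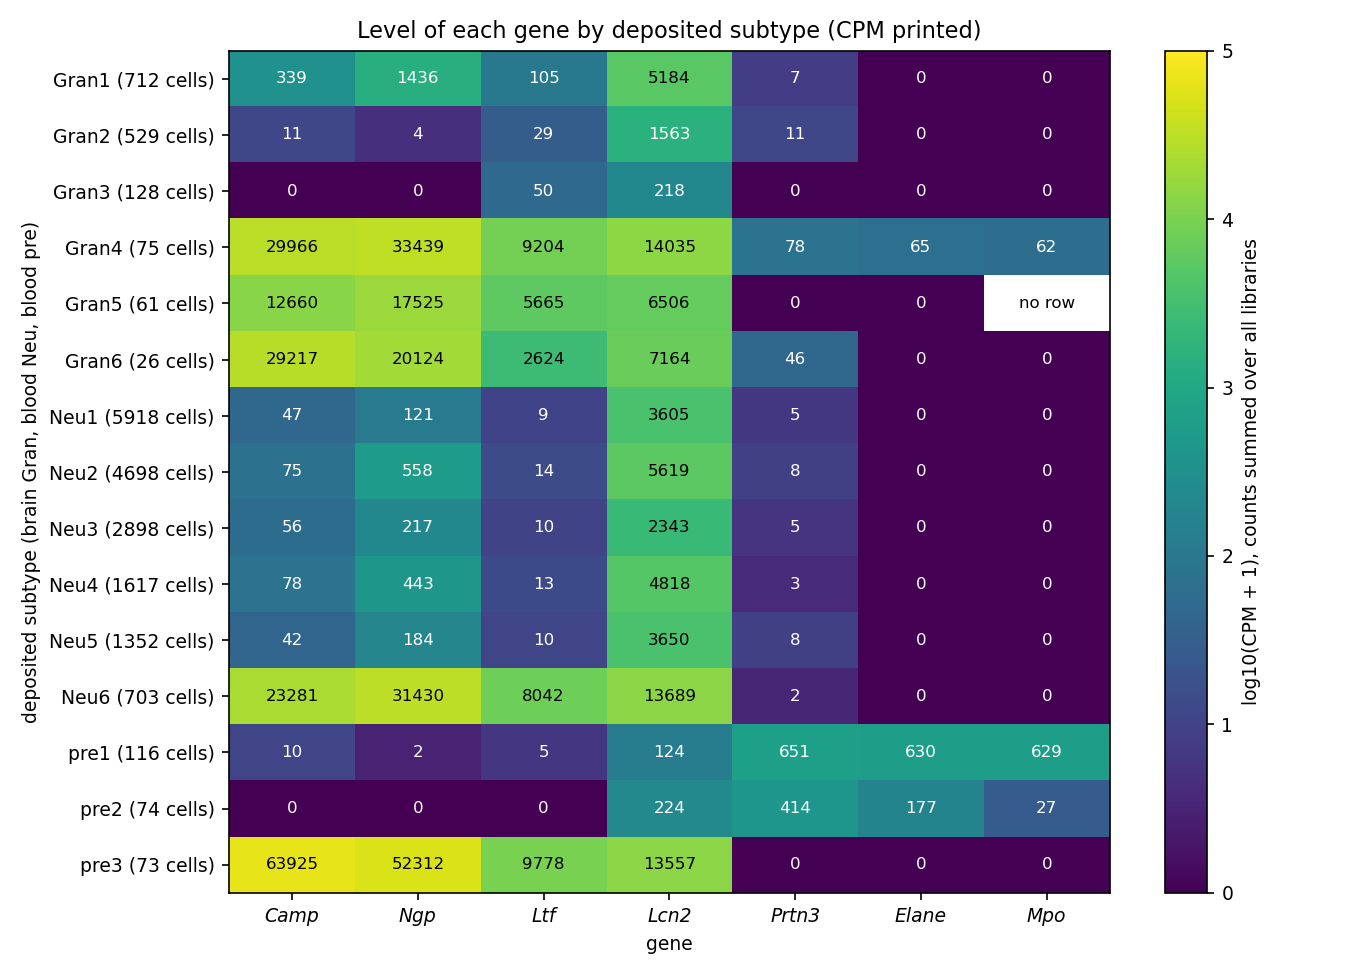
Colour and printed numbers give the CPM of each gene (columns) in each deposited subtype (rows), counts summed over all libraries; the colour scale is log10(CPM + 1), and Mpo in brain uses the aged libraries only, so Gran5, found only in young brain, has no value. The pooled values of Camp, Ngp and Ltf are high in Gran4, Gran5, Gran6, Neu6 and pre3 (Camp was 0 in young stroke cells of Gran5 and Gran6, and 2 blood libraries held most of the Camp counts in Neu6), and Prtn3, Elane and Mpo in pre1 and pre2. Stroke day 2 replicate 4 of blood held most of these counts in the pre subtypes.

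Cells with at least 10 counts of Camp or of Ngp, called high cells here, held most of the transcript. In blood they were 433 of 17186 neutrophils (2.52%), 405 of them in Neu6, and they held 95.5% of the Camp, 87.0% of the Ngp and 96.8% of the Ltf counts but 16.7% of the Lcn2 counts. In brain they were 74 of 1531 (4.83%), 62 of them in Gran4 to Gran6, and they held 98.6% of Camp, 91.4% of Ngp, 94.0% of Ltf and 38.4% of Lcn2. High cells of blood held Cxcr2, a chemokine receptor of mature neutrophils, at 1204 CPM against 4316 in the other neutrophils. They held Chil3, a chitinase-like protein of immature neutrophils, at 4460 CPM against 66.7. The mature neutrophil gene S100a8 was instead higher in them, at 178377 CPM against 130075, and Retnlg was at 16204 against 19683. In brain, high cells held Cxcr2 at 1104 CPM against 2942 and Chil3 at 4035 against 557. S100a8 was at 182143 CPM against 91794 there, and Retnlg at 14819 against 14667. The markers therefore did not all go in the direction of immature cells. The median depth of high cells of blood was 1292 counts against 534, which the threshold on counts favours.

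In young brain, all 4 specific granule genes were lower in granulocytes after stroke than after sham surgery. Camp was at 10493, 5718, 3085 and 9495 CPM in the 4 sham libraries and at 0 in each of the 4 libraries of stroke day 2. Over 188109 counts of day 2 granulocytes no Camp count was found. A floor of 3 counts over the group would allow up to 15.9 CPM, 427-fold below the pooled sham level. That floor takes counts as independent of each other. Camp counts were clumped, with 155 in 1 Gran4 cell of day 14 replicate 3, so the floor overstates the certainty from 350 day 2 cells. Ngp was at 10795, 9298, 4845 and 12058 CPM in sham and at 0, 368, 617 and 270 at day 2. Every sham library was at least 4845 CPM and every day 2 library at most 617.

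Ltf was at 4318, 2088, 1696 and 1748 CPM in sham granulocytes and at 523, 0, 17.9 and 0 at day 2. Lcn2 was at 7394, 8951, 4838 and 6774 CPM in sham and at 1830, 1563, 3997 and 3197 at day 2. The groups did not overlap for any of these 4 genes, as for 15.2% of the 994 genes tested (4.23% with day 2 lower), but Lcn2 stayed detectable in every library after stroke. By edgeR's quasi-likelihood test with Benjamini-Hochberg adjustment over 994 genes, 8.35% of all genes tested were called at day 2, 2.82% lower and 5.53% higher. Ngp fell by 4.97 on the log2 scale (SE 1.04, adjusted p = 0.0053) and Lcn2 fell by 1.58 (SE 0.45, adjusted p = 0.032). Camp and Ltf passed the filter on low counts (187 CPM in at least 4 libraries) only through the sham libraries where they are high, so a lower level after stroke was built into their being tested, and their levels are a description. Ngp and Lcn2 pass it without the sham libraries. Lcn2 does so with 4 libraries of day 2 and 3 of day 14. Ngp has just the 4 libraries needed, 3 of day 2 and 1 of day 14. In that day 14 library, replicate 3, 1 cell of Gran4 held 203 Ngp counts, so the pass of Ngp rests on that cell. Without the cells of Gran4 to Gran6, Camp and Ltf did not pass the filter and were not tested. Ngp was then at 499, 1943, 280 and 1038 CPM in sham and at 0, 99.3, 362 and 277 at day 2. These groups overlapped, and Ngp passed the filter there only through sham, so its level there is a description. Lcn2 was tested there and was not called (edgeR adjusted p = 0.126). The Lcn2 call was also lost without sham replicate 1 (adjusted p = 0.0637), 2 (0.119) or 4 (0.0715), without day 2 replicate 1 (0.116), 2 (0.0910) or 4 (0.0524), and without a filter on low counts (0.213), while leaving out 1 library kept the log2 fold change between -1.95 and -1.41.

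At day 14 the Lcn2 level was lower again. It was at 380, 104, 1160 and 489 CPM, below the lowest day 2 library (1563 CPM) in every replicate. Against day 2, Lcn2 fell by 2.32 on the log2 scale (SE 0.48, edgeR adjusted p = 0.0085), where 4.23% of the genes tested were called in either direction, 1.81% higher and 2.41% lower. With the replicate number as a block, and in every other alternative run, Lcn2 stayed called lower, with log2 fold changes from -3.07 to -2.01. Against sham, Lcn2 fell by 3.91 (SE 0.51, edgeR adjusted p = 1.6e-05). Thinned to 250 counts per cell, 49.1% to 73.9% of sham granulocytes per library held Lcn2, 19.0% to 50% at day 2 and 0 to 10.2% at day 14 (92, 65 and 84 shallower cells left out). Unthinned, at 0.5 counts or more, these shares were 55.6% to 81.1%, 24.0% to 64.9% and 3.45% to 19.6%.

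The other specific granule genes at day 14 came from almost a single cell. Camp was at 0, 0, 1656 and 0 CPM, Ngp at 0, 0, 2151 and 0, and Ltf at 47.5, 0, 949 and 0. In replicate 3, 155 of the 157 Camp counts of the group were in 1 cell of Gran4. Against sham, Ngp fell by 4.18 (SE 0.98, edgeR adjusted p = 0.0039), and it stayed called when any 1 library was left out (adjusted p at most 0.0116). Without day 14 replicate 3 every day 14 library is at 0 for Ngp, so the size of the fold rests on that library. Camp and Ltf again passed the filter only through sham, and their levels are a description. In that comparison 26.1% of the genes tested were called, 13.1% lower, so calls were common among all genes. DESeq2 also called Ngp and Lcn2 there. Against day 2, Camp was called higher (adjusted p = 0.042), but this call was lost in 7 of 19 alternatives, among them the replicate block (adjusted p = 0.118) and the fit without replicate 3, where both groups were at 0. Ngp (0.78, SE 0.96) and Ltf (1.92, SE 1.196) were not called against day 2, although Ngp was called lower without the 5% of cells with most counts (log2 fold change -5.26, adjusted p = 0.0032). Of the azurophil genes, Elane was at 0 in each young brain library. Prtn3 was at 33.5, 8.52, 0 and 0 CPM in sham, at 0 in each day 2 library and at 0, 0, 10.5 (1 count) and 0 at day 14, and neither gene passed the filter.

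The share of high cells, which are defined by Camp and Ngp and so restate the same counts per cell, was 4.23% to 14.6% of granulocytes in the young sham libraries, 0 to 1.35% at stroke day 2 and 0 to 0.654% at day 14. Upper limits of the 95% Wilson intervals were 6.76%, 4.87%, 7.27% and 2.53% in the day 2 libraries. At day 14 they were 6.64%, 11.7%, 3.61% and 2.94%. Several of these limits lie above the lowest sham share of 4.23%. After thinning, cells with at least 3 counts of Camp or Ngp were 7.14% to 25.0% in sham, 0 to 1.45% at day 2 and 0 to 0.730% at day 14. Subtype shares also differed, as a measured fact without a test: Gran1 made up 75.6% to 90.8% of sham granulocytes and 3.15% to 6.90% at day 14. Lcn2 outside Gran4 to Gran6 was 3571 to 6663 CPM in sham, 1592 to 3989 at day 2 and 104 to 567.6 at day 14. Median depth per granulocyte was 325 to 552 counts in sham, 273 to 736 at day 2 and 286 to 561 at day 14.

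Summed neutrophil markers of the granulocytes were 224861 to 293057 CPM in sham, 114877 to 208073 at day 2 and 59232 to 74809 at day 14, with 1 of the 8 markers at 0 in each day 14 library and none at 0 in the others. Summed markers of other cell types in the same cells reached at most 1548 CPM for monocytes and 1377 for microglia over all 29 libraries. Ly6g, a surface marker of mouse neutrophils, was at 795 ± 164 CPM in sham and 236 ± 182 at day 2 (SD, n = 4 each), and at 0 at day 14. It passed the filter on low counts only through sham, so its level is a description. S100a8, an abundant calcium-binding alarmin, was lower at day 14 than at day 2 (-1.62, SE 0.31, edgeR adjusted p = 0.0050). The part of these marker changes in the granule results was not tested.

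**Figure D2:**
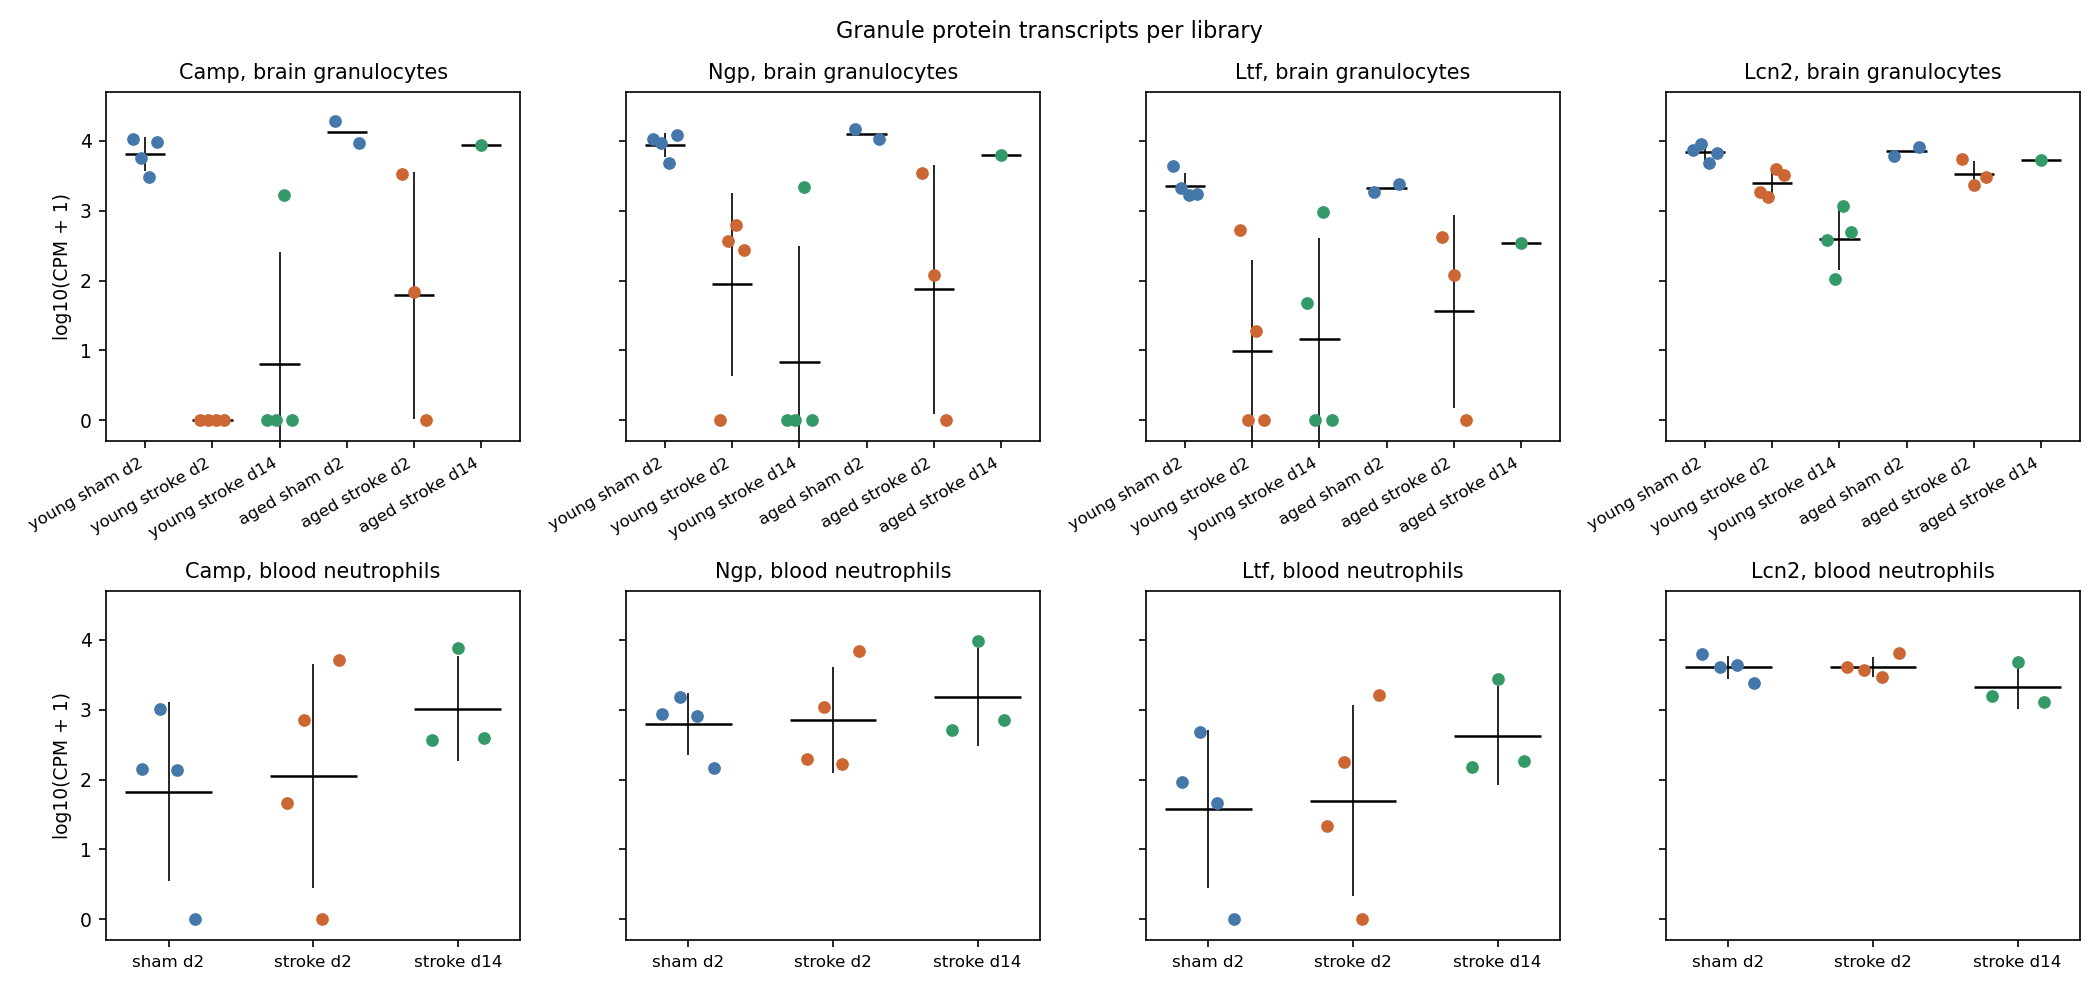
Each point is 1 library, with log10(CPM + 1) on the vertical axis; horizontal lines are group means and vertical lines 1 SD on that scale (groups of 3 or more), cut at the lower edge of the axis. In young brain the sham points for Camp, Ngp, Ltf and Lcn2 lie above all stroke points, and in blood 1 library of stroke day 2 and 1 of day 14 stand above the others for Camp, Ngp and Ltf.

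Some other genes of specific granules were also called lower in brain. Of the 16 genes of specific granules on the list, 8 that are not members were tested at day 2 against sham. Of these 3 were called, all lower, where 2.82% of all genes tested were called lower, and the median log2 fold change of the 8 was -1.16 against -0.01 over all genes. The 3 were the collagenase Mmp8 (-1.73, SE 0.44, edgeR adjusted p = 0.019), the peptidoglycan-binding protein Pglyrp1 (-1.41, SE 0.37, adjusted p = 0.022) and the NADPH oxidase subunit Cybb. Cybb, like Chil3 among the 8, passed the filter only through sham, so a lower level after stroke was built into its being tested. Cybb and Chil3 both enter the medians given here. Without sham, 6 of the 8 genes passed the filter, as did 825 of the 994 genes tested. At day 14 against sham, 6 of the 8 were called lower, with a median of -2.29 against -0.06 over all genes, where 13.1% of all genes tested were called lower. The 8 again include Cybb and Chil3, for which a lower level was built in, so only the other 6 genes gave an open test. Mmp8 was at -4.83 (SE 0.54, adjusted p = 4.6e-06) and Anxa1, an anti-inflammatory annexin, at -3.30 (SE 0.48, adjusted p = 5.8e-05).

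Genes of other granule compartments were called in both directions. Of 10 azurophil granule genes only Lyz2 and Cd63 were tested in brain. Lyz2, which encodes lysozyme, was at 7221 ± 713 CPM in sham, 3055 ± 1861 at day 2 and 1482 ± 883 at day 14 (SD, n = 4 each). It was not called at day 2 (-1.41, SE 0.44, edgeR adjusted p = 0.057) and was called lower at day 14 against sham (-2.60, SE 0.47, adjusted p = 0.00041). The tetraspanin Cd63 was higher at day 2 (2.74, SE 0.52, edgeR adjusted p = 0.0026) and rose from 162 ± 92.8 CPM in sham to 1270 ± 969 (SD, n = 4 each). Of 8 tested genes of gelatinase granules and secretory vesicles, the receptor Cd14 was higher at day 2 (1.45, SE 0.40, adjusted p = 0.029). The protease Mmp25 was at 549 ± 182 CPM in sham and 146 ± 149 at day 2 (SD, n = 4 each). It also passed the filter only through sham, so its level is a description. Of 5 tested protease inhibitor genes, Cstb, an inhibitor of cysteine cathepsins, was higher (3.35, SE 0.55, adjusted p = 0.00078). Wfdc21 was lower (-1.66, SE 0.49, adjusted p = 0.040). Serpinb1a, an inhibitor of neutrophil serine proteases, was at 353 ± 148 CPM in sham and 46.7 ± 51.2 at day 2 (SD, n = 4 each). It passed the filter only through sham, so its level is a description. None of 4 tested regulators of granulocyte formation was called at day 2 or day 14 against sham. Of 2 tested genes of immature and proliferating neutrophils none was called at day 2, and both were lower at day 14 against sham (Hmgn2 and Hmgb2). Hmgn2 passed the filter only through sham, so a lower level after stroke was built into its being tested. Of 12 mature neutrophil genes only Ly6g, which passed the filter only through sham, was called at day 2. At day 14 against sham 6 of the 12 were lower and 2 higher. Over all genes tested, 8.35% were called at day 2 and 26.1% at day 14 against sham (13.1% lower, the rest higher).

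In aged brain the specific granule genes were also highest in sham. Camp was at 19144 and 9439 CPM in the 2 aged sham libraries, at 3387, 67.7 and 0 in stroke day 2 (male, female 1 and female 2) and at 8787 in the single day 14 library. Lcn2 was at 6174 and 8270 CPM in sham, between 2336 and 5416 at day 2 and at 5343 at day 14. The aged day 14 library held 21 granulocytes, 3 of them high cells, and it had 4 counts of Elane (345 CPM), 3 of Prtn3 (259 CPM) and 1 of Mpo (86.3 CPM). In aged sham Prtn3 was at 90.8 and 32.4 CPM and Elane at 29.9 and 0, and Mpo was at 0 in the other 5 aged libraries. With 1 library that group has no replicate check. At stroke day 2, aged and young granulocytes were compared by edgeR over 911 genes, and 0.0% were called (57 genes had an unadjusted p under 0.05). Ngp (2.00, SE 1.14, adjusted p = 0.75) and Lcn2 (0.46, SE 0.42, adjusted p = 0.90) were therefore not called. Camp, Ltf, Prtn3 and Elane did not pass the filter. The young libraries were all male and 2 of the 3 aged ones female, so age and sex are partly confounded, and sex was not tested. Aged and young libraries also come from different gene tables, which cannot be told apart from age. Without the aged male library both differences changed sign (Ngp -2.12, Lcn2 -0.07), and neither was called.

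**Figure D3:**
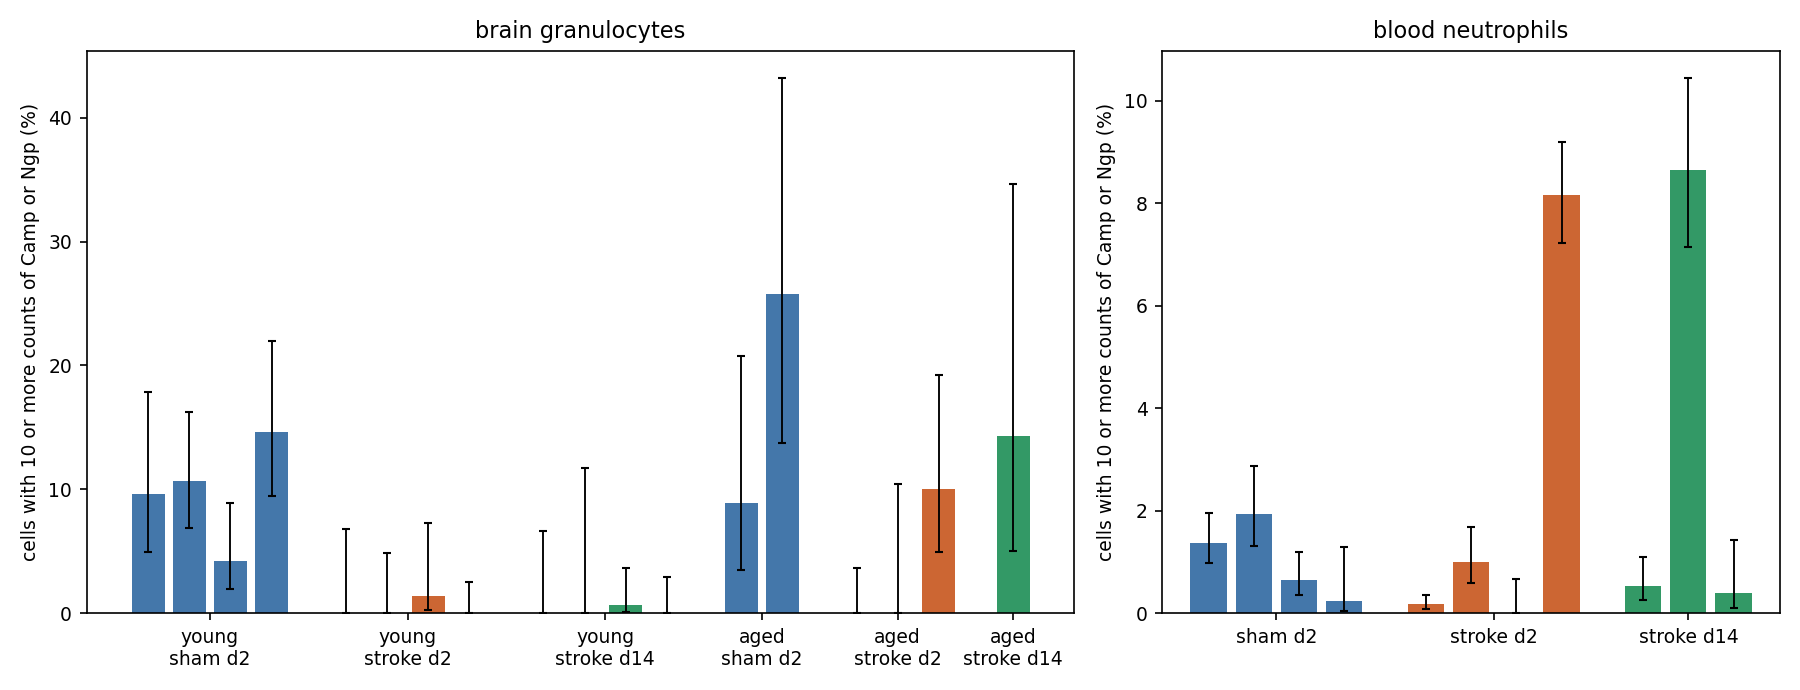
Bars give the percent of neutrophils with 10 or more counts of Camp or Ngp, 1 bar per library, with 95% Wilson intervals that cover counting error only. Among young brain libraries the sham bars reach from 4.23% to 14.6% and the stroke bars do not pass 1.35%; in blood, stroke day 2 replicate 4 (8.15%) and day 14 replicate 2 (8.65%) stand above the rest.

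In blood, differences between pools were larger than differences between groups. Camp was at 141, 1018, 137 and 0 CPM in the 4 sham libraries, at 44.4, 705, 0 and 5115 at stroke day 2, and at 361, 7687 and 396 at day 14. Ngp was at 871, 1523, 798 and 143 CPM in sham, at 198, 1086, 166 and 6914 at day 2, and at 503, 9543 and 716 at day 14. Ltf was at 90.4, 481, 45.5 and 0 CPM in sham, at 20.4, 176, 0 and 1616 at day 2, and at 150, 2755 and 184 at day 14. The same 2 libraries, stroke day 2 replicate 4 and day 14 replicate 2, were the highest for all 3 genes, and the groups overlapped.

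The same 2 libraries held the most high cells, 242 of 2968 neutrophils and 96 of 1110, against 0 to 1.93% of neutrophils in the other 9. By edgeR over 4944 genes, 0.0% of genes were called at stroke day 2 against sham (209 had an unadjusted p under 0.05), and no member was. At day 14 against sham 5.99% of genes were called (2.18% higher, 3.8% lower), and no member was: Camp was at 2.97 (SE 1.51, adjusted p = 0.28), Ngp at 1.87 (SE 1.14, adjusted p = 0.39) and Ltf at 2.58 (SE 1.36, adjusted p = 0.30). At day 14 against day 2 4.69% were called (1.4% higher, 3.3% lower) and no member was. Without a filter on low counts 3 members were called higher at day 2 and at day 14 against sham. With both high libraries left out the 3 fold changes against sham turned below 0, at day 2 and at day 14, and none was called.

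Prtn3 was at 7.003 ± 2.902 CPM in sham neutrophils of blood, at 5.61 ± 3.79 at day 2 and at 3.78 ± 0.88 at day 14 (SD, n = 4, 4 and 3). It did not pass the filter on low counts. The exact two-sided permutation test of CPM gave p = 0.629 for day 2 against sham and p = 0.114 for day 14 against sham, for which 0.0571 is the smallest possible. For Elane and Mpo at 0, the pooled counts allow up to 0.718 CPM in sham, 0.507 at day 2 and 2.29 at day 14. In stroke day 2 replicate 4 some cells carried values of these genes too close to 0 to add a count: 23 neutrophils for Prtn3, 8 for Elane and 4 for Mpo.

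Lcn2 differed less between blood pools than the other 3 genes, although the same libraries were highest within both stroke groups. It was at 6168, 4125, 4338 and 2419 CPM in sham, at 4080, 3645, 2922 and 6519 at stroke day 2, and at 1559, 4842 and 1268 at day 14. The day 14 value of 4842 belongs to replicate 2, the library with many high cells, and the other 2 lie below all other libraries. Over all neutrophils the day 14 difference from sham was not called (-1.04, SE 0.49, edgeR adjusted p = 0.24). Without Neu6, Lcn2 was at 5941, 3768, 4076 and 2368 CPM in sham, at 4022, 3424, 2887 and 4807 at day 2 and at 1428, 1725 and 986 at day 14. The day 14 group then lay below all others, and Lcn2 was called lower than in sham (-1.93, edgeR adjusted p = 0.0033) and than at day 2 (-1.79, adjusted p = 0.0055). That setting was chosen after the values were seen. In the neutrophils of the same day 14 libraries the summed neutrophil markers were also below every sham library (113210 to 190529 against 199073 to 303211 CPM), and B cell markers were at 150 to 299 CPM against 0 to 116 in sham; their part in the Lcn2 values was not tested.

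Fits within each deposited subtype, over libraries with at least 20 of its cells, gave the same direction in Neu3, Neu4 and Neu5. In Neu5, Lcn2 was at 5555, 4484, 3405 and 2825 CPM in sham, at 3536, 2120, 2147 and 5130 at stroke day 2, and at 1472, 1372 and 985 at day 14. All 3 day 14 libraries lay below all earlier ones. Lcn2 fell by 1.90 against sham (SE 0.34, edgeR adjusted p = 0.00025; 8.62% of 1253 genes called) and fell by 1.54 against day 2 (SE 0.34, adjusted p = 0.0031; 5.75% called). Both calls held in all 14 alternatives run for each.

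In Neu3, Lcn2 was at 7349, 4140 and 1503 CPM in the 3 sham libraries of the fit, at 3487, 2291 and 3629 at day 2, and at 1308, 1306 and 935 at day 14. Lcn2 fell by 2.29 against sham (SE 0.42, edgeR adjusted p = 0.0016; 7.62% of 1930 genes called). Ngp in Neu3 was at 965, 640 and 13.6 CPM in sham and at 5.54, 88.7 and 17.5 at day 14. Ngp fell by 4.22 against sham (SE 0.73, edgeR adjusted p = 0.0010), although its lowest sham library lay within the day 14 range. Against day 2 both genes were called in Neu3 (3.26% of genes called; Ngp -3.34, SE 0.75, adjusted p = 0.014; Lcn2 -1.63, SE 0.41, adjusted p = 0.028). Those 2 calls were lost in 5 of 12 alternatives for Ngp and 7 of 12 for Lcn2, and the Lcn2 call was lost when any of the 3 day 14 libraries was dropped, with adjusted p from 0.0629 to 0.171.

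In Neu4 only 2 day 14 libraries had enough cells. Lcn2 was at 5863, 3851, 4185 and 2439 CPM in sham, at 4450, 3301, 3031 and 5604 at day 2, and at 947 and 1253 at day 14. Lcn2 fell by 2.32 against sham (SE 0.47, edgeR adjusted p = 0.0050; 1.18% of 1098 genes called) and fell by 2.28 against day 2 (SE 0.47, adjusted p = 0.0069; 1.18% called). Leaving out either day 14 library ended both calls (adjusted p 0.141 to 0.286), with log2 fold changes from -2.88 to -2.35. Those fits hold 1 day 14 library, which is assumed to vary like the other groups. In Neu1 (-1.35, SE 0.47, adjusted p = 0.34), Neu2 (-0.64, SE 0.36, adjusted p = 0.58) and Neu6 (-0.11, SE 0.84, adjusted p = 0.998) Lcn2 was not called at day 14 against sham, where 0.0296%, 0.135% and 0.0% of genes were called. Against day 2 no member was called there either (0.0296%, 0.169% and 0.0% of genes). Whether the subtypes differ in their response was not tested. No member was called in any of the 6 subtypes at day 2 against sham. Neu3 made up 63.9% to 82.0% of blood neutrophils at day 14 and 0.967% to 32.2% in the earlier libraries.

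**Figure D4:**
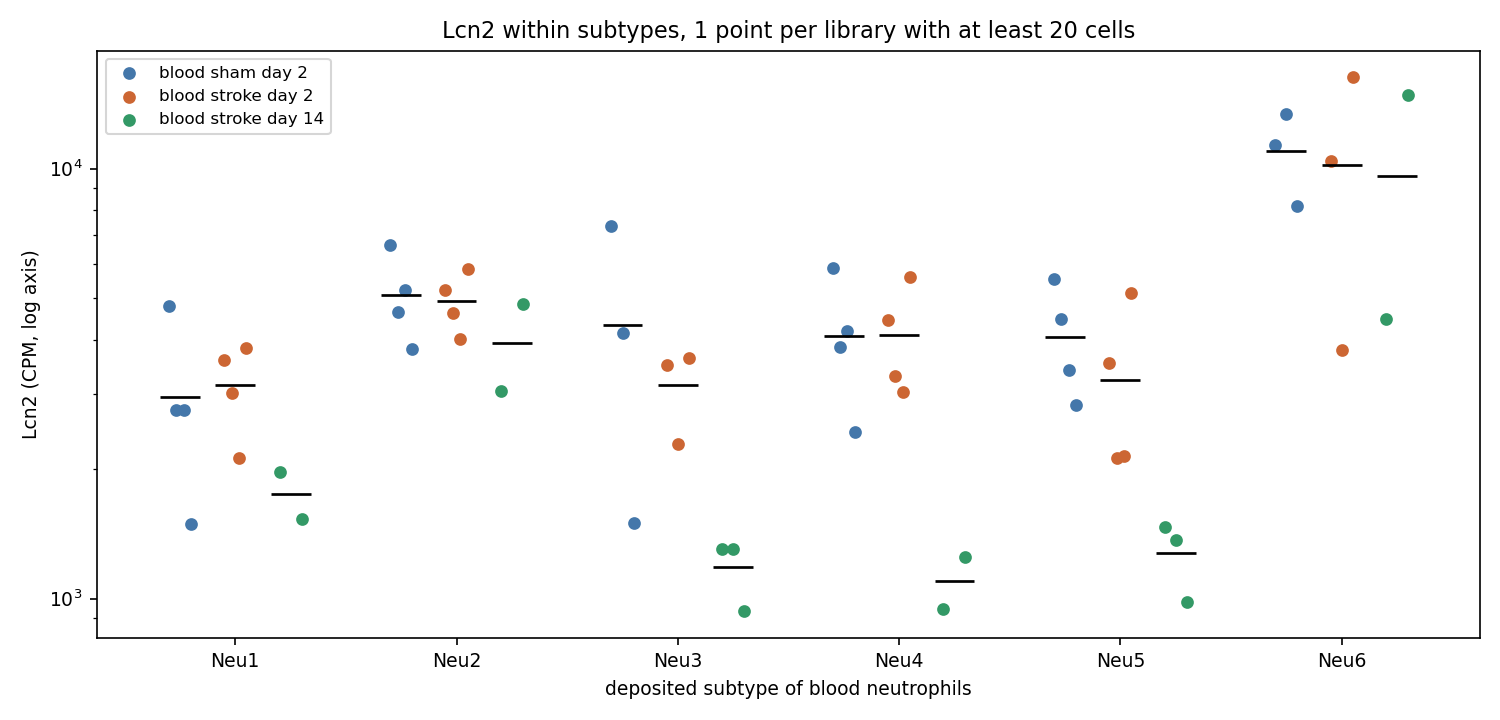
Lcn2 level (CPM, log axis) within each deposited subtype of blood neutrophils, 1 point per library with at least 20 cells of the subtype; horizontal lines are group means. In Neu4 and Neu5 the day 14 points lie below every sham and stroke day 2 point, and in Neu6 the groups overlap.

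Among other granule and maturity genes of blood neutrophils at day 14 against sham, several protease inhibitors were called lower, where 5.99% of all genes tested were called, 3.8% lower. Of 9 tested protease inhibitor genes 6 were called lower and none higher, with a median of -1.96 against 0.02 over all genes. These included the stefins Stfa2 (-4.53, SE 0.70, edgeR adjusted p = 0.0020) and Stfa3 (-3.88, SE 0.90, adjusted p = 0.019), inhibitors of cysteine proteases, and Wfdc17 (-3.88, SE 0.46, adjusted p = 0.00059). Stfa genes are near-identical copies, so reads may be split between them. Of 8 tested gelatinase granule and secretory vesicle genes, 3 were called lower: Cd14 (-1.93, SE 0.50, adjusted p = 0.031), Mmp25 (-1.17, SE 0.30, adjusted p = 0.031) and the formyl peptide receptor Fpr1 (-1.07, SE 0.28, adjusted p = 0.030). Of 12 mature neutrophil genes, Retnlg (-1.70, SE 0.33, adjusted p = 0.0080) and Stfa2l1 (-1.23, SE 0.24, adjusted p = 0.0089) were lower. None of the 16 specific granule genes, 4 tested azurophil genes, 7 regulators of granulocyte formation or 4 genes of immature and proliferating neutrophils was called.

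Between tissues at stroke day 2, brain granulocytes and blood neutrophils were fitted together over 1976 genes, and 9.16% were called (6.58% higher in brain, 2.58% lower). Neither tested member was: Ngp was at -2.70 (SE 1.01, edgeR adjusted p = 0.11) and Lcn2 at -0.69 (SE 0.43, adjusted p = 0.32), brain against blood. Without blood stroke day 2 replicate 4 the Ngp difference was -0.34. Camp, Ltf and Prtn3 did not pass the filter. Camp was 0 in the 4 brain libraries and 1466 ± 2454 CPM in blood (SD, n = 4), with an exact permutation p = 0.143, and blood replicate 3 was also at 0. The comparison crosses tissue with preparation, which cannot be told apart.

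Across the 11 blood libraries, Camp went with Ltf (Pearson r = 0.99 of log2 CPM) and with Ngp (r = 0.91), while Lcn2 had r = 0.26 with Camp, 0.27 with Ltf and 0.48 with Ngp. These r values are descriptions, since on the log2 scale the libraries at 0 and the 2 high libraries set much of the range of Camp. Among 3804 genes the next most like Camp were Zmpste24 (r = 0.88), Arhgap1 (r = 0.88) and Cep250 (r = 0.87). For Lcn2 they were Dstn (r = 0.98), Anxa1 (r = 0.96), Hcfc1r1 (r = 0.95), Ifitm6 (r = 0.95) and Fpr2 (r = 0.94).

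Outside neutrophils, Lcn2 and Prtn3 had levels that differed by group in monocyte-type cells. In the blood code Mo, whose libraries held summed monocyte markers at 6272 to 11869 CPM and neutrophil markers at 46.7 to 291, Prtn3 was at 84.1 ± 25.1 CPM in sham, 98.1 ± 26.5 at stroke day 2 and 11.1 ± 3.61 at day 14 (SD, n = 4, 4 and 3). Each day 14 library (6.93 to 13.5 CPM) lay below each sham library (60.2 to 118 CPM). By edgeR Prtn3 fell by 2.97 against sham (SE 0.39, adjusted p = 0.0020), where 0.254% of 6706 genes were called (0.149% lower), and fell by 3.25 against day 2 (SE 0.39, adjusted p = 0.00051), where 0.537% were called (0.447% lower). Without day 14 replicate 2 the adjusted p against sham was 0.055. Elane was at 0 in Mo of sham and day 14 libraries.

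Lcn2 in Mo was at 123 ± 50.7 CPM in sham and 272 ± 165 at day 2 (SD, n = 4 each), and at 0 in each of the 3 day 14 libraries. The sums allow up to 1.71 CPM at day 14, so the pooled level was at least 71.8-fold higher in sham (floor of 3 counts over the group), and Lcn2 was called lower by edgeR against sham (adjusted p = 0.0014) and day 2 (adjusted p = 0.00021). However, 39 of the 2357 day 14 Mo cells held an Lcn2 value above 0 and under 0.5, and 35 of these were under 1e-06. In sham 21 of 2401 and at day 2 48 of 1800 cells held a value above 0 and under 0.5, none of them under 1e-06. With every value rounded up the difference was smaller, a log2 fold change of -2.90 against sham (adjusted p = 0.021) and -3.96 against day 2 (adjusted p = 0.0030). S100a8, a neutrophil transcript, had values above 0 and under 1e-06 in 1304 Mo cells of sham, 779 of day 2 and 819 of day 14. What produced these values close to 0 is not given in the sources used here, and their part in the Lcn2 difference was not tested.

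In young brain, the code MdC (monocyte markers at 4153 to 7778 CPM, neutrophil markers at 0 to 3485) held Lcn2 at 210 ± 70.3 CPM in sham, 29.4 ± 14.4 at stroke day 2 and 1.09 ± 1.32 at day 14 (SD, n = 4 each). Lcn2 fell by 2.35 at day 2 (SE 0.49, edgeR adjusted p = 0.0093; 6.71% of 8080 genes called, 1.05% lower), and fell by 6.73 at day 14 against sham (SE 0.66, adjusted p = 3.2e-05; 5.15% called, 0.941% lower). Lcn2 also fell by 4.37 from day 2 to day 14 (SE 0.62, adjusted p = 0.0028; 1.79% called, 0.965% lower). Without sham replicate 3 the day 2 difference had an adjusted p of 0.073. In the same cells S100a8 was at 1056 ± 989, 114 ± 67.0 and 12.2 ± 14.9 CPM, and its part in the Lcn2 values was not tested. Prtn3 was at 33.0 ± 39.8, 40.4 ± 17.6 and 10.2 ± 7.82 CPM and was not called, except lower at day 14 against day 2 with the replicate block (-1.87, adjusted p = 0.0092; -1.98, adjusted p = 0.16 without it). In the brain code EC, with endothelial markers at 12118 to 23624 CPM, Lcn2 was at 147 ± 133, 116 ± 34.7 and 32.4 ± 17.8 CPM. It was not called at day 2 against sham (adjusted p = 0.74; 13.3% of 5833 genes called), at day 14 against sham (adjusted p = 0.48; 0.0% called) or at day 14 against day 2 (adjusted p = 0.060; 11.2% called). That last difference was called lower in 4 of 16 alternatives: by DESeq2 (adjusted p = 0.019), with counts rounded up (0.041) and without sham replicate 1 (0.028) or 2 (0.036).

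**Figure D5:**
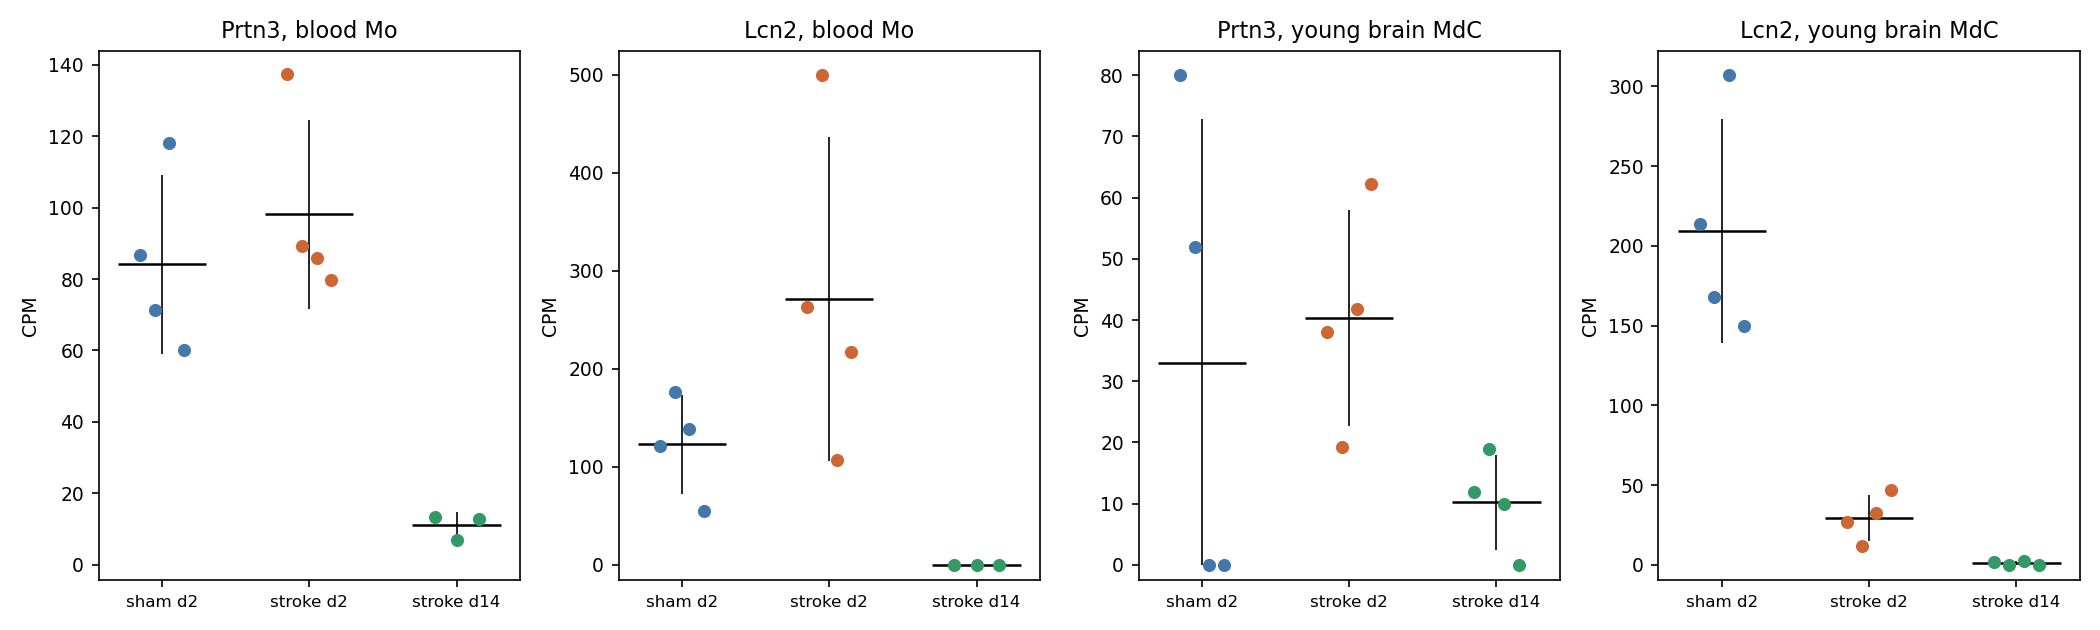
CPM of Prtn3 and Lcn2 in the blood code Mo (left pair) and the young brain code MdC (right pair), 1 point per library, with the group mean (horizontal line) and 1 SD (vertical line, cut at 0). The day 14 points of Mo lie below all other points for Prtn3 and at 0 for Lcn2, and Lcn2 in MdC is highest in the 4 sham libraries.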

How the data were processed

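Single-cell libraries of 18 brain and 11 blood pools were analysed. The authors deposited estimated counts per gene and cell (expected counts, not whole numbers), with the count per cell, the number of genes, the percent of mitochondrial counts and the cell type codes in the deposited metadata. Seurat and mm10 are named in the submitters' processing notes; other upstream steps are not given in the sources used here. Many deposited values lie between 0 and 1e-06. All deposited cells were kept and no doublet caller was run.

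Expected counts were summed per library and deposited type, rounded and fitted with edgeR 4.0.16 (quasi-likelihood test, TMM, filterByExpr, R 4.3.3), over libraries with at least 20 cells. Benjamini-Hochberg adjustment ran over all genes tested, and an adjusted p under 0.05 was a call. All young groups of a tissue shared a fit. Aged and young brain libraries of stroke day 2 were fitted together, as were young brain and blood libraries of stroke day 2. The aged sham and aged day 14 libraries were in no fit. DESeq2 1.42.0 was an alternative. The fit was tested on simulated data. CPM uses unrounded sums. Intervals and floors cover counting error only.

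By the naming rule all 7 members were taken in every comparison; those that did not pass the filter, or that a table did not hold, have no test there. Other genes were named where called, at most the 3 highest and 3 lowest per list and comparison; the text gives a subset of these. The members and lists were chosen with earlier results of these data known. The day 14 against sham comparison in brain, the fits in Mo, MdC and EC, the fits without Neu6 or Gran4 to Gran6, the thinning to 250 counts and the promoter motifs were chosen after values were seen. Likeness is Pearson's r of log2 CPM (prior count 2). Same-numbered young brain libraries of day 2 and day 14 deviated together (r 0.181 to 0.465 over 4 pairs), so the numbers pair them by the rule used; in the other comparisons they did not.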

Additional observations from a re-analysis of the deposited data

Results flagged for a closer look

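In 10 of the 23 groups and genes checked, 1 library stood apart from the rest of its group by Dixon's criterion. Chance meets it in about 1 of 20 groups of normally distributed values. That rate does not hold for these CPM values, where libraries tie at 0 and Camp, Ngp and Ltf flag the same libraries. The 3 blood libraries of day 14 are too few for that check, so replicate 2 there (Camp 7687 against 361 and 396 CPM) was not assessed. In blood, stroke day 2 replicate 4 stood above the others for Camp (5115 CPM), Ltf (1616 CPM) and Ngp (6914 CPM), and sham replicate 2 did for Camp (1018 CPM). In young brain, day 14 replicate 3 stood above the others for Camp (1656 CPM), Ltf (949 CPM) and Ngp (2151 CPM). Prtn3 met the criterion there at 10.5 CPM, but this is 1 count, and the other 3 libraries, at 0, allow up to 77.4 to 312 CPM, so it cannot be said to stand above them. For Ltf, sham replicate 1 (4318 CPM) and stroke day 2 replicate 1 (523 CPM) of young brain also stood apart.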

How the results depend on the processing

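Of 1233 recomputed values, 1081 kept their direction and side of the threshold (or stayed within the set limit), 36 lost a call, 21 gained one, 40 changed sign and 55 moved by more than the limit; the cause was not tested. Lcn2 in brain stayed called lower at day 14, against sham and against day 2, in every alternative run. The low depth of brain granulocytes, 9605 counts in the smallest library, limits what could be tested there.

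Without a filter on low counts, blood calls were 3 members and 32 genes at day 2 against sham, 4 and 487 at day 14 against sham, and 1 and 408 at day 14 against day 2. In the same setting brain had 45 genes at day 2 against sham and 25 at day 14 against day 2, brain against blood had 3 members and 696 genes, and aged against young had 1 and 6. Blood Lcn2 at day 2 against sham (log2 fold change) was then 0.006488, and 0.008502 without TMM. Without TMM, Prtn3 in MdC at day 2 against sham was -0.1841. DESeq2 called 2 members in brain at day 14 against sham and 329 genes in brain against blood; with counts rounded up the latter was 337. At 1 count or more, the median share of blood neutrophils with Lcn2 was 34.38%.

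With the replicate block, blood log2 fold changes at day 2 against sham were -0.487 for Camp, -0.8754 for Ngp and -0.5969 for Ltf. With the replicate block, brain at day 14 against day 2 had 1 member called, also with only the compared groups (79 genes), and Ngp was at -0.0877. In Neu3 at day 14 against day 2 the block ended both calls (adjusted p 0.0542 for Ngp and 0.0506 for Lcn2). In Prtn3 of MdC at day 14 against day 2 it gave a call (-1.872, adjusted p 0.00916). With only the compared groups and no block, 1 member was called in brain at day 14 against day 2.

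Without Neu6, 1 member was called in blood at day 14 against sham and 1 against day 2. Ngp was then at -0.2757 at day 2 against sham, at -1.649 at day 14 against sham and at -1.374 at day 14 against day 2, and Camp at -0.8444 in the last. With both high blood libraries left out, Camp, Ngp and Ltf were at -0.4988, -0.9573 and -1.343 at day 2 against sham and at -0.1121, -0.8792 and -0.2543 at day 14 against sham. Then 1 member and 150 genes were called at day 14 against sham, and 1 and 92 at day 14 against day 2. Without the 5% of cells with most counts, 1 member was called in blood at day 14 against sham, and in brain at day 14 against day 2 Ngp was at -5.255 and Ltf at -2.213. Without Gran4 to Gran6, Camp and Ltf were not tested in brain, and of the other 2 members 1 was called at day 2 against sham (54 genes in all) and 2 at day 14 against sham, and Ngp was at -4.727 at day 14 against day 2. Ngp passed the filter in that setting only through sham, so its lower calls against sham were built in.

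Leaving out 1 library at a time gave these ranges. In blood at day 2 against sham, Lcn2 ran from -0.3523 to 0.3065, Camp from -0.4999 to 3.802, Ngp from -0.9587 to 1.783 and Ltf from -1.345 to 3.038. In blood at day 14 against sham, 0 to 1 members and 83 to 359 genes were called, with Camp from -0.1116 to 4.43, Ngp from -0.8766 to 2.395 and Ltf from -0.2562 to 3.871. In blood at day 14 against day 2, 0 to 1 members and 67 to 260 genes were called, with Camp from -2.458 to 3.465, Ngp from -2.28 to 2.823 and Ltf from -1.997 to 3.913. In brain, 42 to 87 genes were called at day 2 against sham, and 1 to 2 members and 15 to 55 genes at day 14 against day 2, with Ngp from -7.018 to 1.385 and Ltf from -2.377 to 5.251. Brain against blood gave 119 to 216 genes, and 4 to 9 calls were made within blood subtypes. Aged against young gave Ngp from -2.116 to 2.494 and Lcn2 from -0.07063 to 0.6768. At day 2 against sham, Prtn3 ran from -0.007492 to 0.4995 in Mo and from -0.1233 to 1.238 in MdC, and Lcn2 from -0.6879 to 0.7379 in EC.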
